A study of Mus musculus with 2 samples.

Results

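The 8 genes described here belong to the mevalonate pathway and its control, and were followed as UMI counts (unique molecular identifiers, 1 per captured RNA molecule) through the cells of adult mouse lung. They were set by symbol, with earlier results of these data known: Hmgcs1, Pmvk, Mvd, Idi1, Fdps, Fdft1, Sqle and Insig1. Each was found once among the 28692 genes of the deposited tables. Counts of the members, or of the gene lists given below, beside the share of all genes are therefore a description. The cells came from C57BL/6 lung, were sorted by flow cytometry for the epithelial surface protein Epcam, and went into a droplet-based 3' single-cell kit. The study held 1 library named Control and 1 named NAPH, made after the injury that the series title names by that abbreviation. The sources used here do not give dose, time after injury, exact age, sex or number of animals. With 1 library per group, no difference between the libraries has a replicate check and none was tested.

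The deposited libraries held 3298 Control and 3685 NAPH barcodes, with medians of 8303.5 and 9417 UMIs. After filtering, 3211 Control and 3572 NAPH cells remained, and 14 barcodes occurred in both libraries. Cells were grouped by fixed cuts on UMIs per 10000 UMIs of the cell. AT2 cells, which line the alveolus and make surfactant, had at least 500 Sftpc UMIs and numbered 1800 in Control and 2515 in NAPH. They were split by Lrg1, a gene for a secreted glycoprotein, into Lrg1-low cells (below 5; 1626 Control and 764 NAPH cells), Lrg1-middle cells (5 to 20; 150 and 771) and Lrg1-high cells (at least 20; 24 and 980). Secretory cells had at least 1000 Scgb1a1 UMIs and numbered 757 and 197. Ciliated cells had at least 10 UMIs of Foxj1, Ccdc153 and Tmem212 together and numbered 193 and 204. Myeloid cells had at least 2 UMIs in all of Ptprc, Coro1a and Cd52 and fell in no other gate; they numbered 447 and 505. A few cells met 2 gates and were kept in both, among them 5 Control and 10 NAPH cells that were both AT2 and secretory.

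The gates were checked against markers that had not defined them, all of which were detected in the gate of their name. Without Sftpc, the other 8 AT2 markers summed to 86535 CPM (UMIs per 1000000 UMIs of the cell group) in Control and 83400 in NAPH AT2 cells. Without Scgb1a1, the other 5 secretory markers summed to 36501 and 81603 CPM in secretory cells. The 3 other ciliated markers summed to 10402 and 7342 CPM in ciliated cells, and the 4 other myeloid markers to 22142 and 24489 in myeloid cells. Beside the AT2 results stand the markers of other cells in the AT2 gate. The 7 transitional epithelial markers (Krt8, Krt7, Sfn, Areg, Hbegf, Sprr1a and Cldn4) summed to 347 CPM in Control and 676 in NAPH, the 5 AT1 markers to 1583 and 1965, and the 6 secretory markers to 16584 and 7014. The lower secretory sum in NAPH came from Scgb1a1, at 15237 and 4675 CPM. The other 5 secretory markers were higher there, with sums of 1347 and 2338 CPM. Of the 3 endothelial markers Cdh5 was at 0 in both libraries and Pecam1 and Cldn5 were detected, with a sum of 2.38 and 1.84 CPM. The 5 T and B cell markers summed to 0.0701 and 1.04 CPM.

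The mevalonate pathway turns acetyl-CoA units into isoprenoids, from which cells make cholesterol, ubiquinone, dolichol and the lipid anchors of many proteins. Most of its genes are known targets of the SREBP transcription factors, which are released from the endoplasmic reticulum when sterols are scarce and held there by the protein SCAP together with INSIG proteins. In AT2 cells the pathway also supplies the cholesterol of surfactant. In order of action, Hmgcs1 encodes HMG-CoA synthase, Pmvk phosphomevalonate kinase, Mvd diphosphomevalonate decarboxylase, Idi1 an isopentenyl diphosphate isomerase, Fdps farnesyl diphosphate synthase, Fdft1 squalene synthase, which commits farnesyl diphosphate to sterols, and Sqle squalene epoxidase. Insig1 encodes one of the INSIG proteins, a brake on the pathway that is itself an SREBP target.

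The members lie on 6 chromosomes of GRCm38 (GENCODE vM21). Pmvk spans chr3:89454541-89469013 on the plus strand and overlaps no annotated gene. Neither Sqle (chr15:59315077-59331192, plus) nor Insig1 (chr5:28071363-28078662, plus) overlaps one. Hmgcs1 (chr13:119690379-119708260, plus), Idi1 (chr13:8885501-8892451, plus) and Mvd (chr8:122433601-122443422, minus) each overlap a predicted gene on the opposite strand. Fdps (chr3:89093588-89101959, minus) overlaps 2 predicted genes on its own strand. Fdft1 (chr14:63145150-63179578, minus) overlaps Ctsb, the cathepsin B gene, on the opposite strand. The sources used here do not say how reads in such overlaps were assigned or whether strand was used, so the counts of these 5 members are less certain than those of Pmvk, Sqle and Insig1.

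RefSeq promoter windows were found for 5 of the 8 members, and 3 are printed. Pmvk had the largest difference in AT2 cells, Hmgcs1 was the 1 member whose window held a sterol element core, and Insig1 was the member that was not higher in NAPH AT2 cells. Each run gives bases before the start site annotated by RefSeq, 5' to 3' on the gene's strand, in the GRCm38.p6 build. The Pmvk and Hmgcs1 runs reach up to that site. The Insig1 run leaves out the last 49 bases before it, since the GENCODE gene begins there, and positions are counted from the RefSeq site. Capitals mark matches, on either strand, to the core of the sterol regulatory element (TCACNCCAC), the CCAAT box (CCAAT, read as ATTGG on the other strand) and the E box (CACGTG).
Pmvk, chr3:89454291-89454540, plus strand: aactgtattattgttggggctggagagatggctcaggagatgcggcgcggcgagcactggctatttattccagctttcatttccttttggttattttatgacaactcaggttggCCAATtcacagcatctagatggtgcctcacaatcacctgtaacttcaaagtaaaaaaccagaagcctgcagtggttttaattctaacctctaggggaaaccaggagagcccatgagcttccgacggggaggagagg
Hmgcs1, chr13:119690101-119690350, plus strand: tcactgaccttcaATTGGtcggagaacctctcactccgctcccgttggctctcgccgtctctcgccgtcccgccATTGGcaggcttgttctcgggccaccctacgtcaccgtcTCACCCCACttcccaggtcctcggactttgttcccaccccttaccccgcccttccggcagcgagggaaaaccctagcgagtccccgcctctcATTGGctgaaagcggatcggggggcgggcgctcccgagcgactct
Insig1, chr5:28071162-28071362, plus strand: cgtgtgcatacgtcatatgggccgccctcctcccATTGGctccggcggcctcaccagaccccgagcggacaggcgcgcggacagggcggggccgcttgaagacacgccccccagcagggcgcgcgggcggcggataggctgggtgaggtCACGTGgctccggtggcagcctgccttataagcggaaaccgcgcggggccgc
The Hmgcs1 window held a sterol element core at positions -137 to -129 from the start site and 3 CCAAT boxes. The printed Pmvk window held 1 CCAAT box, at -136 to -132, and neither of the other motifs. The window of another Pmvk start site, chr3:89459321-89459570, held none of the 3 motifs and is not printed. In the Insig1 window there was 1 CCAAT box and 1 E box, the latter at -101 to -96. The windows of Mvd and Idi1 held 2 CCAAT boxes each and neither of the other motifs. Of 32851 mouse promoter windows of 250 bases, 1.05% held the sterol element core, 33.8% a CCAAT box and 6.02% an E box. These matches describe letters only. Windows for Fdps, Fdft1 and Sqle were not used here.

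Across AT2 cells, 7 of the 8 members stood higher in the NAPH library and Insig1 stood slightly lower. Pmvk differed far more than the rest. Its level was 124 CPM (119 to 130, exact 95% Poisson interval) in Control and 766 CPM (755 to 777) in NAPH, a ratio of 6.16 (5.86 to 6.47). All ranges in parentheses are exact 95% intervals for counting error only, and do not cover differences between animals. Among the 10963 genes with at least 50 UMIs over both libraries, the Pmvk ratio ranked 41 from the top.

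Of the enzymes after Pmvk, Fdps stood at 145 CPM in Control and 293 in NAPH, a ratio of 2.01 (1.91 to 2.11). Mvd stood at 19.98 and 35.5 CPM, and its ratio was 1.78 (1.55 to 2.04). Sqle stood at 31.1 and 52.0 CPM (1.67 times, 1.502 to 1.87) and Fdft1 at 44.8 and 73.2 CPM (1.63 times, 1.49 to 1.79). These 4 enzymes lay between 1.63 and 2.01 times, well below Pmvk, while Idi1, which also acts after Pmvk, lay below them. The Fdps interval lay above those of Sqle and Fdft1. Idi1, at 98.2 and 133 CPM, and the first enzyme Hmgcs1, at 85.0 and 117 CPM, differed least among the enzymes, by 1.35 (1.27 to 1.44) and 1.37 times (1.28 to 1.47). Insig1 stood at 100.2 CPM in Control and 90.5 in NAPH, a ratio of 0.903 (0.845 to 0.966).

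With a ratio of at least 1.5 taken as higher, 5 of 8 members were higher and 0 were at least 1.5 times lower. Over all genes tested, 9.16% were higher and 4.55% lower by the same rule. The median log2 ratio of all genes was 0.10, and the same 5 members passed 1.5 after division by that median, against 7.01% of all genes. Pmvk then stood at 5.76 and Fdft1, the nearest to the threshold, at 1.53. In 1 random draw that thinned every AT2 cell to 3500 UMIs, Fdft1 stood at 1.45 and 4 members passed. In another draw at that depth Fdft1 had a mean of 0.166 UMIs per cell in Control and 0.255 in NAPH, past 1.5. Whether Fdft1 passed after thinning thus varied with the draw. The summed level of the 7 members other than Pmvk was 1.51 times higher (1.47 to 1.55).

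**Figure D1:**
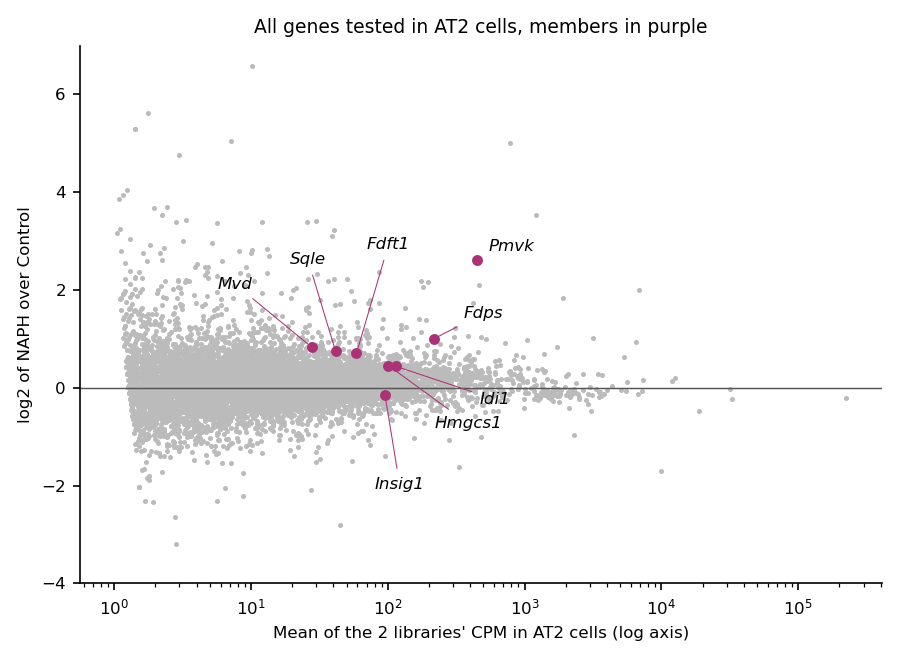
Each grey point is a gene with at least 50 UMIs in AT2 cells over both libraries; the horizontal axis is the mean CPM of the libraries (log axis) and the vertical axis the log2 ratio of NAPH over Control. The members are in purple: Pmvk lies at 2.62, apart from the cloud, Fdps at 1.01, and Insig1 just below 0; genes without a UMI in 1 library are not drawn.

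The balance among the members shifted with Pmvk. In Control AT2 cells Pmvk gave 1774 of the 9259 UMIs of the 8 members, a share of 19.2% (18.4 to 19.98), and in NAPH 19110 of 38909, or 49.1% (48.6 to 49.6). The enzymes on either side of Pmvk in the pathway did not share its ratio. Mvk, the mevalonate kinase gene that acts just before it and is no member, stood at 24.9 and 28.4 CPM (1.14 times, 1.003 to 1.30), and Mvd, just after it, at 1.78 times.

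**Figure D2:**
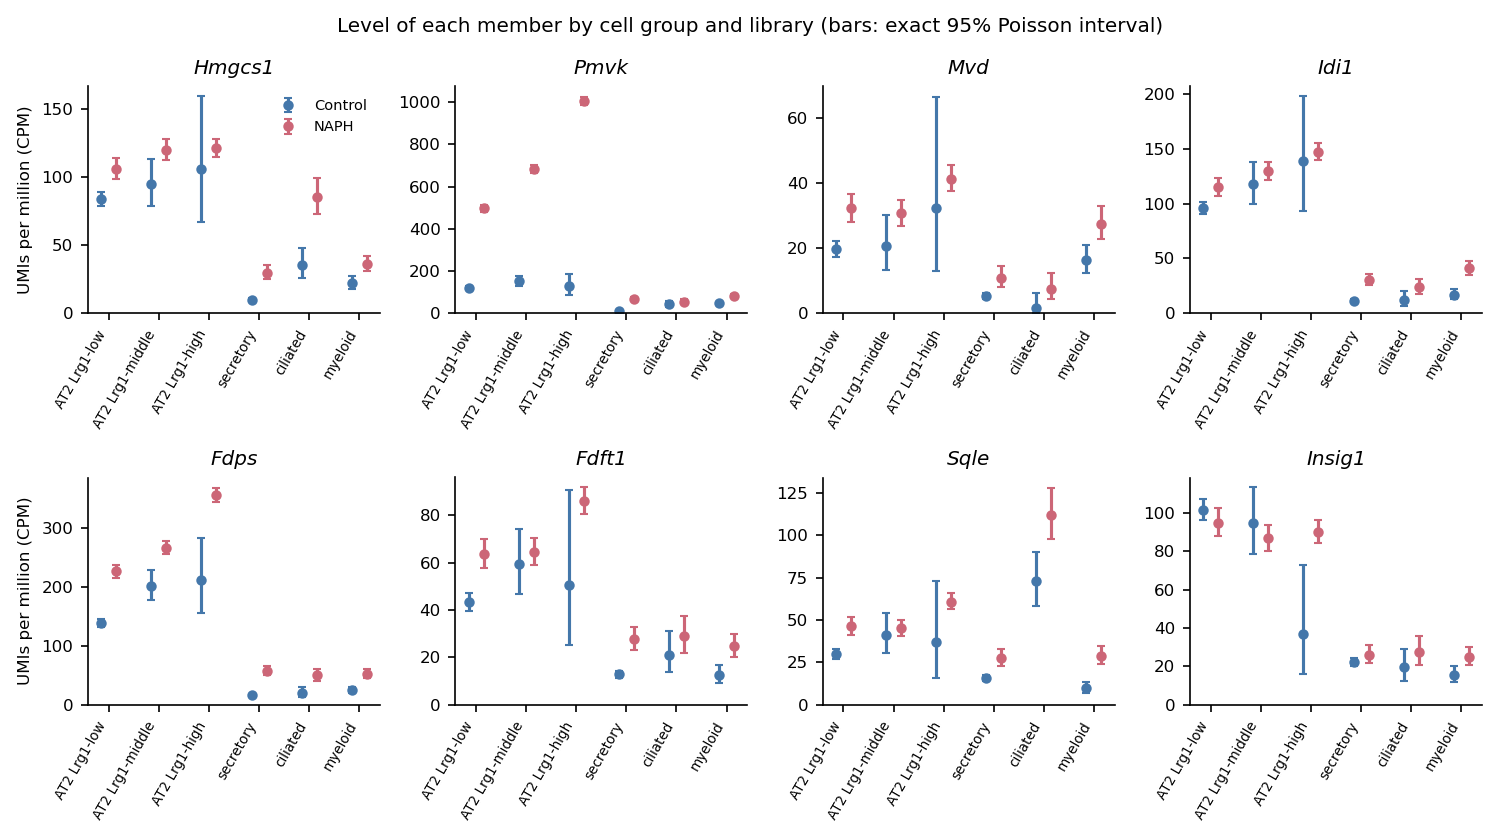
Level of each member in CPM (vertical axes, separate scales from 0) by cell group, with Control in blue, NAPH in red and exact 95% Poisson intervals as bars. Pmvk in NAPH climbs from 497 to 1006 CPM over the AT2 tiers while Control stays between 122 and 152; Sqle is highest in ciliated cells.

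Because NAPH held 980 Lrg1-high AT2 cells and Control only 24, the libraries were also compared within each Lrg1 tier. In Lrg1-low cells, the tier with most Control cells, Pmvk stood at 122 CPM in Control and at 497 CPM in NAPH, a ratio of 4.09 (3.85 to 4.35). Lrg1 itself still stood at 73.4 and 191 CPM within this tier. Mvd (1.64 times), Fdps (1.63) and Sqle (1.54) also passed 1.5, which made 4 of 8 members higher against 7.96% of all genes tested. All genes had shifted by a median log2 ratio of 0.13 in this tier, and relative to that shift Mvd stood at 1.4966, Fdps at 1.49 and Sqle at 1.41, so that 1 member, Pmvk at 3.74, remained past 1.5, against 4.84% of all genes. Fdft1 stood at 1.47, Hmgcs1 at 1.26, Idi1 at 1.202 and Insig1 at 0.933 on plain CPM. The transitional markers moved with the libraries here too, at 360.0 CPM in Control and 857 in NAPH, and their part in the ratios was not tested beyond the split given below.

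In Lrg1-middle cells Pmvk stood at 152 and 685 CPM, 4.51 times higher (3.91 to 5.24; 4.09 relative to a median log2 shift of 0.14). It was the 1 member of 8 past 1.5, against 15.5% of all genes. Mvd followed at 1.49 (0.995 to 2.34), on 26 Control UMIs, and Fdps at 1.32 (1.16 to 1.51). The other 5 lay between 0.914 for Insig1 and 1.27 for Hmgcs1. Mvd passed 1.5 with no doublet removal (1.54), with only cells of at least 4212 UMIs (1.51) and without transitional cells (1.55), each of which made 2 members higher.

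The Lrg1-high comparison rests on 24 Control cells. Pmvk had 28 UMIs there, 129 CPM (85.9 to 187), against 1006 CPM in NAPH, a ratio of 7.79 (5.38 to 11.7). Insig1 stood at 36.9 CPM on 8 Control UMIs and at 90.2 in NAPH (2.44 times, 1.23 to 5.68), the opposite side of 1 from the other tiers. Fdft1 (1.69), Fdps (1.68) and Sqle (1.65) also passed 1.5, but only the interval of Fdps (1.255 to 2.30) lay above 1 among these 3. In all 5 of 8 members were higher, against 29.2% of all genes, with 216617 Control UMIs in the whole tier. Cuts at 10 and 40 left 3 Control cells in the tier, with 1 Fdps UMI and 2 Idi1 UMIs. On these few UMIs Fdps moved from 1.68 to 10.5 and Idi1 from 1.06 to 1.98. Cuts at 2.5 and 10 moved Insig1 to 1.34 and left 2 members higher.

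**Figure D3:**
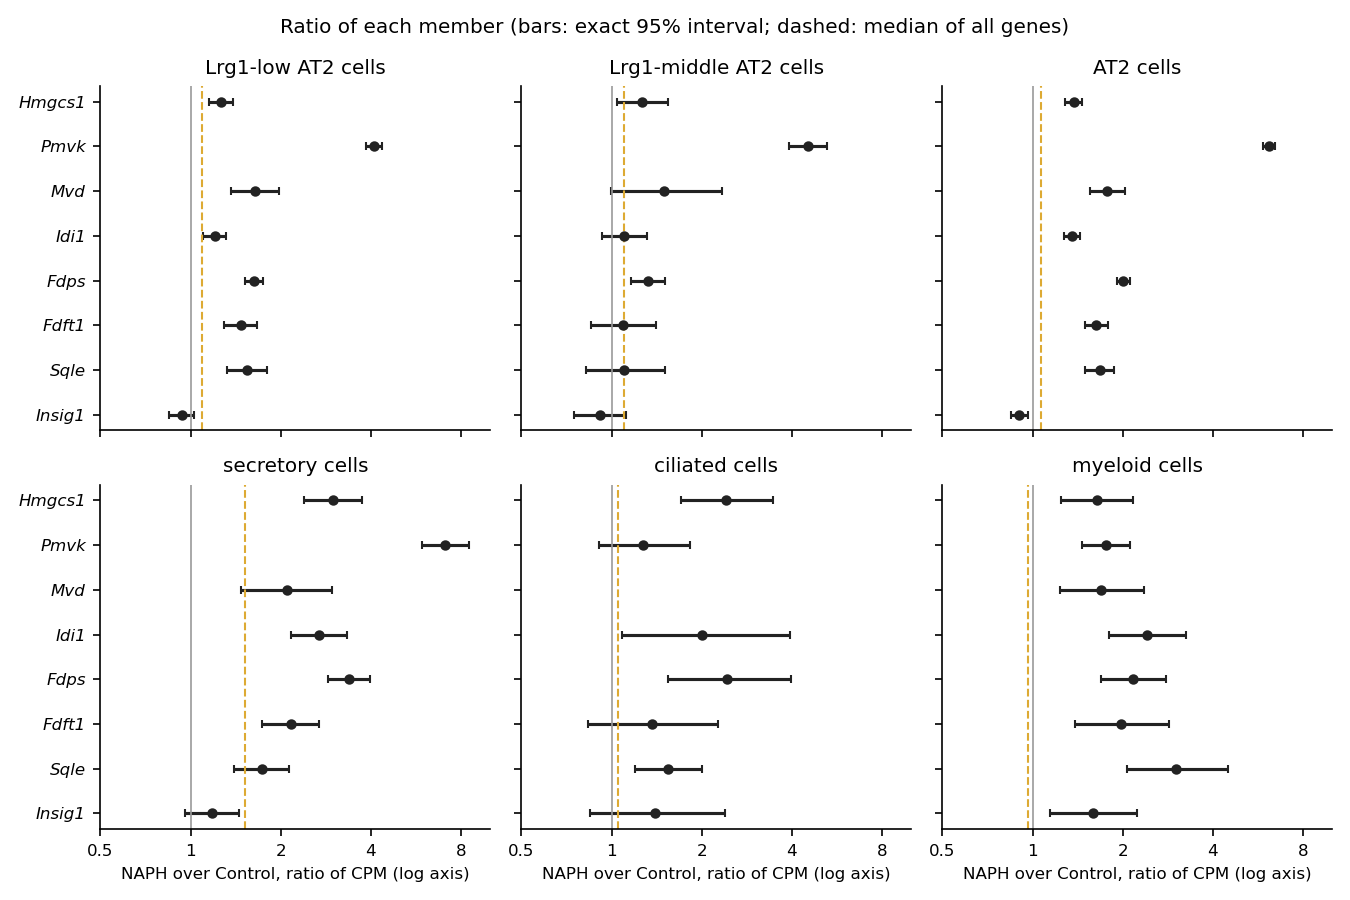
Ratio of NAPH over Control (log axes) for each member with its exact 95% interval, in 6 cell groups; the solid line is 1 and the dashed line the median ratio of all genes in that group. Pmvk stands to the right of all other members in AT2 and secretory cells but not in ciliated or myeloid cells; Mvd in ciliated cells had too few UMIs to be drawn.

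Along Lrg1 within a library, the members took different courses. In NAPH, Pmvk was 2.02 times higher (1.95 to 2.10) in Lrg1-high than in Lrg1-low AT2 cells and Fdps 1.57 times (1.48 to 1.67), which made 2 of 8 members higher against 3.52% of all genes. None of the members was at least 1.5 times lower, against 6.86% of all genes. Fdft1 (1.35), Sqle (1.32), Idi1 (1.28), Mvd (1.28) and Hmgcs1 (1.15) stood between, each with an interval above 1, and Insig1 stood at 0.950 (0.859 to 1.05).

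In Control, by contrast, Pmvk did not differ measurably between the Lrg1-high and Lrg1-low tiers. It stood somewhat higher in Lrg1-middle cells (152 CPM, 131 to 175) than in Lrg1-low cells (122 CPM, 116 to 128). Its Lrg1-high over Lrg1-low ratio was 1.06 (0.704 to 1.54), on 28 UMIs. Mvd (1.64, 0.652 to 3.43, on 7 UMIs) and Fdps (1.53, 1.12 to 2.05) were past 1.5, so 2 of 8 members were higher, against 17.1% of all genes. Insig1 was at 0.363 (0.156 to 0.717, on 8 UMIs), 1 of 8 lower against 27.1% of all genes. With 24 Control cells, neither count was read as a result about the members. With cuts at 10 and 40, which left 3 Lrg1-high Control cells with 1 Fdps UMI, the Fdps ratio turned to 0.252. Whether the courses differ between the libraries was not tested.

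Finer steps of Lrg1, each a part of a tier and so with fewer cells, gave a similar picture for Pmvk. NAPH AT2 cells without any Lrg1 UMI, 205 in number, held Pmvk at 520.5 CPM (486 to 557), against 129 CPM (121 to 137) in 1061 such Control cells. In NAPH the level was 459.9 CPM above 0 to 2.5 Lrg1 UMIs per 10000, 529 from 2.5 to 5, 619 from 5 to 10, 732 from 10 to 20, 937 from 20 to 40 and 1090.4 at 40 or more. In Control it stayed between 108 and 152 CPM up to 40 Lrg1 UMIs per 10000, and the last step held 3 cells. Fdps differed along Lrg1 in both libraries, from 129 to 239 CPM in Control between no Lrg1 UMI and 20 to 40, and from 194 to 341 CPM in NAPH over the same steps. Insig1 in NAPH stayed between 80.1 and 98.0 CPM over all 7 steps.

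**Figure D4:**
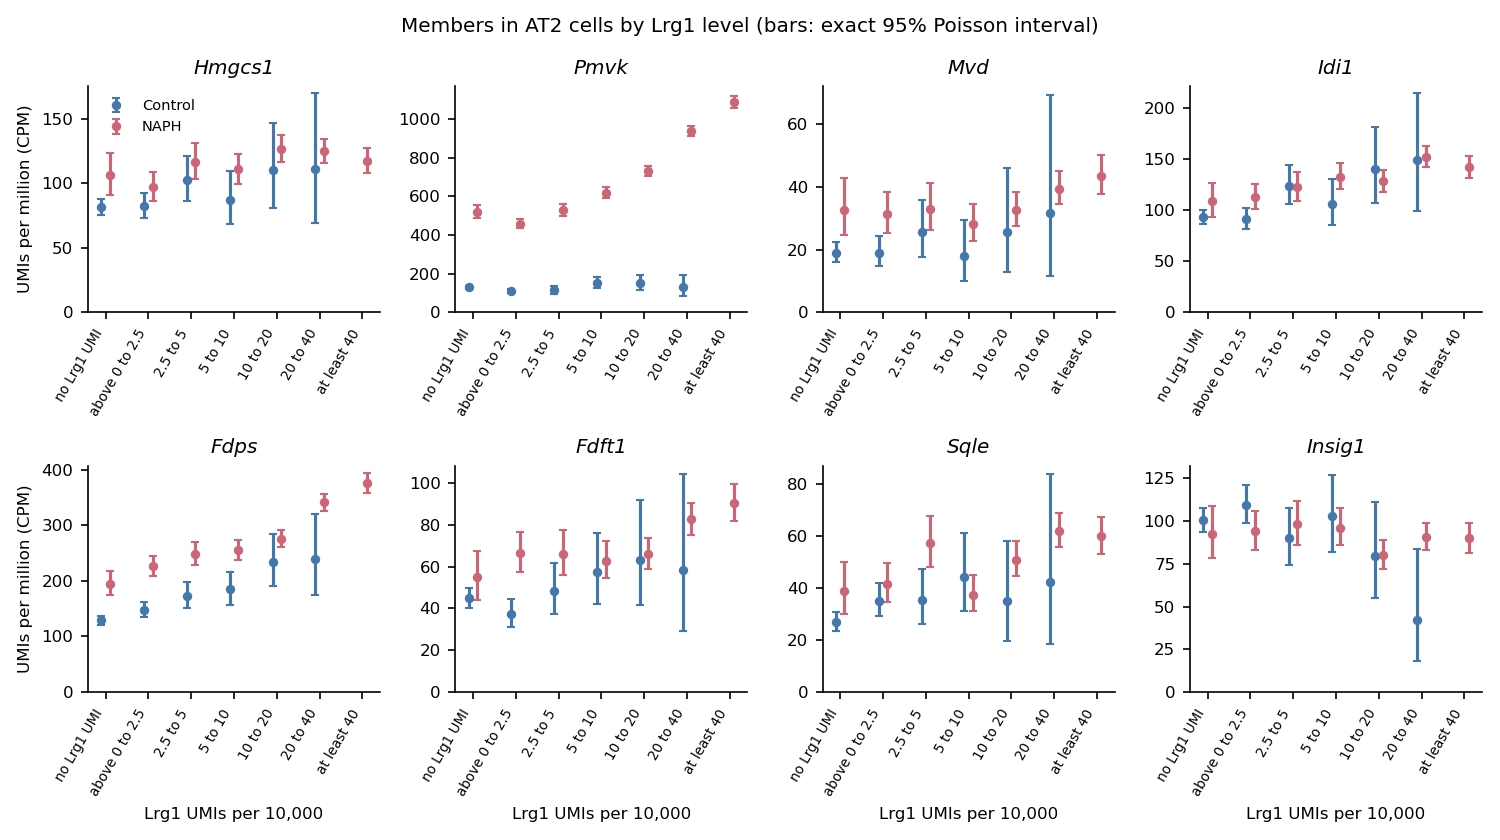
Level of each member in AT2 cells (CPM, from 0) over 7 steps of Lrg1 UMIs per 10000, Control in blue and NAPH in red, with exact 95% Poisson intervals; steps with fewer than 10 cells are left out. Pmvk in NAPH lies above Control at every step drawn for both. It stands at 520.5 CPM without a Lrg1 UMI, at 459.9 in the next step and at 1090.4 in the last. The intervals of Insig1 overlap between the libraries at all 6 steps drawn for both.

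Per cell, Pmvk was detected in 50.8% of Control and 86.4% of NAPH AT2 cells. With each AT2 cell thinned to 3500 UMIs, which left out 0 cells in either library, the shares were 31.1% (29.0 to 33.3) and 70.5% (68.6 to 72.2). The median Pmvk level was 0.742 UMIs per 10000 in Control and 4.08 in NAPH, and the 95th percentile 4.72 and 26.3, so the NAPH median lay just below the 95th percentile of Control, while both libraries held cells without a UMI. The highest single cell held 15 Pmvk UMIs in Control and 91 in NAPH. For Fdps the thinned shares of cells with a UMI were 35.6% and 52.6%, for Idi1 27.6% and 33.2%, for Hmgcs1 22.7% and 28.1%, and for Fdft1 15.2% and 20.9%. Sqle (9.89% and 15.1%) and Mvd (7.11% and 11.7%) were seen in the fewest cells, and Insig1 was the 1 member seen less often after thinning, in 28.8% (26.7 to 31.0) and 25.3% (23.6 to 27.1) of cells. The share of AT2 cells without a UMI of any member was 18.3% in Control and 6.76% in NAPH.

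**Figure D5:**
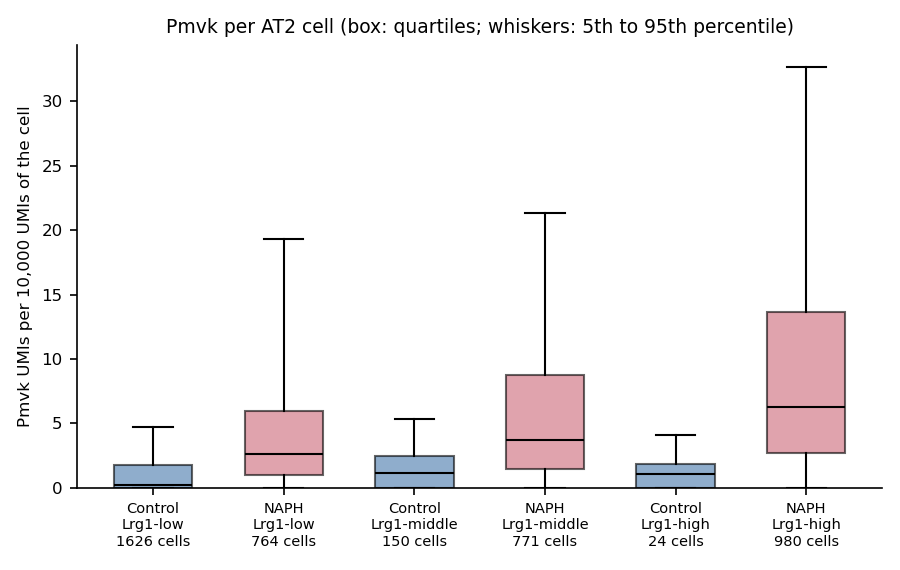
Pmvk UMIs per 10000 UMIs of each AT2 cell by Lrg1 tier and library; boxes span the quartiles with the median as a line, and whiskers reach the 5th and 95th percentiles. The 95th percentile lies at 4.69 in Control and 19.3 in NAPH Lrg1-low cells, and is highest in NAPH Lrg1-high cells.

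Cells with more Pmvk also held more of the other 7 members summed, in both libraries. In NAPH, AT2 cells with fewer than 2, with 2 to 8 and with at least 8 Pmvk UMIs per 10000 held the other 7 members together at 557, 815 and 983 CPM, and Control cells at 477, 685 and 695 CPM (the last over 24 cells). From the lowest to the highest class of NAPH cells, Hmgcs1 stood at 81.6 and 147 CPM, Fdps at 198 and 360.2, Sqle at 33.9 and 66.3, and Insig1 at 70.9 and 107. In Control, over the same classes, Hmgcs1 stood at 78.7 and 121 CPM and Fdps at 129 and 212, but Insig1 stood at 93.1 and 90.6 and Fdft1 at 42.5 and 42.3. Median UMIs per cell over the 3 classes were 9229, 9519 and 9878 in NAPH, and Lrg1 stood at 1528, 2109 and 2986 CPM. In the lowest class Pmvk, though capped by the cut, still stood at 46.6 CPM in Control and 75.1 in NAPH. Hmgcs1 stood there at 78.7 and 81.6 CPM, Idi1 at 87.6 and 94.1, Fdps at 129 and 198, and Insig1 at 93.1 and 70.9. The classes share cells, depth and Lrg1 with the members, so these values are a description.

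Transitional epithelial genes marked part of the NAPH AT2 cells with high Pmvk. Cells with at least 10 UMIs per 10000 of 5 of the transitional markers summed (Areg, Sprr1a, Krt8, Krt7 and Sfn) were 4.78% of Control and 14.5% of NAPH AT2 cells. In NAPH they held Pmvk at 1173 CPM, against 691 CPM in the other AT2 cells, and in Control at 120.3 against 125 CPM. Among Lrg1-high NAPH cells the values were 1869 and 872 CPM. Hmgcs1 differed in the same direction in NAPH (138 and 113 CPM) and the opposite one in Control (55.5 and 86.7), while Fdps did not differ by much in NAPH (288 and 293). Without these cells the Pmvk ratio of NAPH over Control in AT2 cells, 691 against 125 CPM, was 5.54.

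In secretory, ciliated and myeloid cells the members mostly stood lower than in AT2 cells, with Sqle in ciliated cells as the clear exception. Scgb1a1 alone took 596089 CPM in Control and 350289 in NAPH secretory cells, which lowers the CPM of all other genes there. The place of secretory cells in the orders below therefore holds for plain CPM only, and no order was made without Scgb1a1. Ciliated cells held Sqle at 72.9 CPM (58.3 to 90.0003) in Control and 112 CPM (98.0 to 128) in NAPH. These were 1.77 and 1.84 times the next highest gated cell group in the same library. The interval of that step lay above 1 in both libraries. Pmvk in Control was ordered Lrg1-middle AT2 (152 CPM), Lrg1-high AT2 (129), Lrg1-low AT2 (122), myeloid (47.6), ciliated (42.4) and secretory cells (9.60). In Control no AT2 tier could be told apart from the next in this order, nor could myeloid and ciliated cells. The intervals of Lrg1-low (116 to 128) and Lrg1-middle cells (131 to 175) did not overlap, however. In NAPH the order was Lrg1-high (1006), Lrg1-middle (685), Lrg1-low AT2 (497), myeloid (83.6), secretory (68.1) and ciliated cells (54.1), and every step's interval lay above 1. For Hmgcs1, Idi1, Fdps, Fdft1 and Insig1 the 3 AT2 tiers likewise stood above all other groups in both libraries, although for Insig1 in Control the interval of the step from Lrg1-high AT2 to secretory cells included 1. Mvd stood close between AT2 and myeloid cells, at 30.7 CPM in Lrg1-middle AT2 and 27.5 in myeloid cells of NAPH (1.12 times, 0.891 to 1.40).

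In secretory cells most genes stood higher in CPM in NAPH, where Scgb1a1 itself took a smaller part of the UMIs (596089 CPM in Control and 350289 in NAPH). The median log2 ratio of all genes was 0.61. On plain CPM 7 of 8 members were higher, against 52.2% of all genes, a share too common to set the members apart. Relative to the median, 4 of 8 passed 1.5, against 9.7% of all genes: Pmvk at 4.66 (3.88 to 5.59), Fdps at 2.22 (1.89 to 2.62), Hmgcs1 at 1.96 (1.57 to 2.45) and Idi1 at 1.76 (1.42 to 2.18). Fdft1 stood at 1.42, Mvd at 1.38, Sqle at 1.13 and Insig1 at 0.776 (0.628 to 0.952). Sftpc, an AT2 gene used here to gauge free RNA from AT2 cells, stood in secretory cells at 1.17% of its AT2 level in Control and at 4.77% in NAPH. These values include the 5 Control and 10 NAPH cells that also met the AT2 gate. Pmvk stood at 7.72% and 8.90% of its AT2 level, Fdps at 11.7% and 19.8%, Idi1 at 11.6% and 22.9%, and Hmgcs1 at 11.7% and 25.6%. For each 1000 Sftpc UMIs, NAPH secretory cells held 6.97 Pmvk UMIs and NAPH AT2 cells 3.74. The highest single NAPH secretory cell held 30 of the 306 Pmvk UMIs. Under the other settings run, gates without shared cells among them, the secretory Pmvk ratio lay between 4.63 and 7.73. The part of free RNA in the ratios was not tested beyond these values.

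In ciliated cells 7 members had at least 50 UMIs over both libraries. Of these, 4 were higher, against 14.6% of all genes: Fdps (20.3 and 49.6 CPM, 2.44 times, 1.55 to 3.98), Hmgcs1 (35.6 and 85.5 CPM, 2.40 times, 1.70 to 3.45), Idi1 (11.9 and 23.8 CPM, 2.004 times, 1.08 to 3.94) and Sqle (1.54 times, 1.196 to 2.0004). Relative to the median ratio of all genes, Sqle stood at 1.47 and 3 members passed, against 11.9% of all genes. Pmvk stood at 42.4 and 54.1 CPM, 1.28 times (0.905 to 1.82), and at 1.92 times with no doublet removal. Its NAPH level was 7.07% of that in AT2 cells, near the 5.47% at which Sftpc stood there, and in Control 34.1% beside 4.74%. Mvd had 2 and 15 UMIs.

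Myeloid cells were the 1 group outside the epithelium, and there all 8 of 8 members were higher, against 5.57% of all genes. Sqle stood at 9.58 and 28.9 CPM (3.02 times, 2.07 to 4.51), Idi1 at 17.0 and 41.1 (2.41 times, 1.80 to 3.26) and Fdps at 24.2 and 52.5 (2.17 times, 1.69 to 2.80). Fdft1 (1.98), Pmvk (1.75, 1.46 to 2.11; 47.6 and 83.6 CPM), Mvd (1.70), Hmgcs1 (1.64) and Insig1 (1.59, 1.15 to 2.22) followed. The 7 members without Pmvk were together 2.01 times higher (1.80 to 2.25), more than the 1.51 of AT2 cells, though this difference was not tested. In 1 random draw of 3500 UMIs per cell Sqle stood at 1.86 times, and Hmgcs1 (1.39) and Mvd (1.48) fell short of 1.5. Another draw at that depth gave Sqle a mean of 0.0291 UMIs per cell in Control and 0.0931 in NAPH. There Mvd had 0.0626 and 0.0950, past 1.5, and Hmgcs1 0.0940 and 0.127, still short of it. These thinned ratios thus varied with the draw. Markers of other cells moved in this gate as well: the 5 T and B cell markers summed to 1.06 CPM in Control and 46.9 in NAPH, the 4 fibroblast markers to 1.33 and 29.9, and the 6 secretory markers to 14263 and 3551. Without Scgb1a1, the other 5 secretory markers summed to 495 and 802 CPM. The AT2 markers without Lyz2, which myeloid cells also express, summed to 3016 and 6231 CPM, and Sftpc alone stood at 2136 and 4436. Sftpc stood at 0.896% and 2.17% of its AT2 level and Pmvk at 38.3% and 10.9%. Their part in the ratios was not tested.

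Other genes of the pathway, taken from lists of known function, gave a graded picture in AT2 cells. Of the 14 other enzymes of cholesterol synthesis all passed the UMI minimum, 6 were at least 1.5 times higher and 0 lower, against 9.16% and 4.55% of all genes, with a median log2 ratio of 0.52 against 0.10 for all genes. Tm7sf2, a sterol reductase gene, stood at 7.43 and 17.2 CPM (2.32 times, 1.87 to 2.90), Cyp51, the lanosterol demethylase, at 30.3 and 58.1 (1.92 times), Lss, the lanosterol synthase, at 14.3 and 26.7 (1.87 times) and Hsd17b7 at 7.15 and 12.4 (1.73 times). All 4 lay below the 6.16 of Pmvk.

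Of the 12 genes of SREBP control 0 were past 1.5 in either direction, beside the same 9.16% and 4.55% of all genes, with a median log2 ratio of 0.25. Scap, the sterol-sensing escort of SREBP, stood at 19.6 and 28.3 CPM (1.44 times, 1.253 to 1.66). The ubiquitin ligase gene Syvn1 stood at 1.42 times and Erlin1 at 1.27 times. Of 16 genes of sterol uptake, efflux and esters 12 passed the minimum, with 1 higher, a share near the 9.16% of all genes, and a median of 0.12. That gene was Npc2, which encodes a cholesterol-binding protein of the lysosome, at 4487 and 8541 CPM (1.90 times, 1.89 to 1.92). Scarb1 stood at 1.26, Mylip at 1.254 and the efflux pump gene Abca1 at 0.814 (0.598 to 1.11). In the prenyl branch, which attaches isoprenoids to proteins or builds ubiquinone and dolichol, 13 of 14 genes passed the minimum and 1 was higher, Rabggta, a subunit of the Rab prenyl transferase, at 1.70 (1.40 to 2.07). Nus1 (1.26), Ggps1 (1.22) and Rce1 (1.18) followed, and the median was 0.15. Here too 1 higher of 13 is near the share of all genes.

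Ranked by likeness of pattern over the 12 profiles (6 cell groups in 2 libraries), the genes closest to each member differed. The measure was the Pearson correlation of log2(CPM + 1) over 4249 candidate genes, and since the 12 profiles share libraries and mostly contrast AT2 with other cells, it is a description. Closest to Pmvk were Grina (0.970), Slc26a4 (0.958) and St3gal1 (0.942). Mvd was closest to the sterol enzyme gene Cyp51 (0.983), and Fdft1 to Il33 (0.986), Scd1 (0.986) and the sterol enzyme gene Msmo1 (0.978). Fdps was closest to Esam, Scd1 and Itih4 (0.983 to 0.984), and Sqle to Hacd1 (0.951), with Ssx2ip (0.941) also among its nearest 3. Nearest to Hmgcs1 stood Eif3b (0.983), and nearest to Insig1 Mthfd1 (0.959). Among the 3 genes most like Idi1 were Vcpkmt and Esam. Rras and H2-K1 followed for Mvd, Pcyt2 and Pgs1 for Hmgcs1, and Lyz1 and Cers2 for Insig1.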

How the data were processed

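The authors deposited a count table per library, UMI counts per gene and barcode, unnormalized. Per the submitters' processing notes they were made with Cell Ranger against mm10; the sources used here do not give the version, the cell calling or the use of strand. Gene positions came from GENCODE vM21, where 28339 of 28692 gene IDs were found, and promoter windows from RefSeq (GRCm38.p6).

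A cell needed at least 500 genes and 1000 UMIs and at most 20% of UMIs from mitochondrial genes, which 0 Control and 4 NAPH barcodes failed. Scrublet, run within each library in scanpy 1.11.5 (Python 3.11.15), called 0.243% and 0.0815% by its automatic threshold, below 0.5%. The 87 and 109 cells with the highest scores were removed instead, at 0.8% for each 1000 barcodes. Cells were gated by fixed cuts, and UMIs were summed per gate and library and given as CPM. A ratio has an exact conditional Poisson interval, a share an exact Clopper-Pearson one, all at 95% and for counting error only. Genes with at least 50 UMIs over both sides were compared, and a ratio of at least 1.5, or its inverse, was a call. The ratio step was tested on simulated Poisson counts. The alternatives, among them TMM scaling (edgeR 4.0.16, R 4.3.3), other cuts, thinning and doublet handling, are given in the closing section.

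The members and gene lists were chosen with earlier results of these data known. Beside the members, up to 4 genes per list with the ratio farthest from 1 in AT2 cells are named, and the 3 genes most like each member, without ribosomal, mitochondrial, sex-linked and predicted genes. Some genes that this rule picks are not reported here. Srebf1, Srebf2, Mvk and Ctsb fall outside this rule and were named after their values were seen.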

Additional observations from a re-analysis of the deposited data

Results flagged for a closer look

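Insig1 is singled out because its direction, relative to the median ratio of all genes, was not the same in every cell group. NAPH over Control it stood at 1.64 in myeloid cells (1.18 to 2.30), at 0.844 in AT2 cells (0.790 to 0.903) and at 0.776 in secretory cells (0.628 to 0.952). The difference between these groups was not tested, and each value comes from 1 library per condition.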

How the results depend on the processing

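Each member ratio was recomputed under up to 15 other settings, 1 of them (without the 14 shared barcodes) chosen after seeing the data. Of 964 such values 890 lay within the main counting interval, 73 lay outside it without a called ratio crossing 1, and 1 turned direction. Pmvk in AT2 cells, NAPH over Control, ranged from 5.54 to 6.24 and stayed past 1.5 in each Lrg1 tier under all settings run. The turned value was Fdps in Lrg1-high over Lrg1-low Control cells, at 0.252 with Lrg1 cuts at 10 and 40. It rests on 1 Fdps UMI in 3 Lrg1-high Control cells.

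With a fold of 2 in place of 1.5, the members higher numbered 2 in AT2 cells, 1 in the Lrg1-low tier, 2 in the Lrg1-high tier, 0 for Lrg1-high over Lrg1-low cells in Control and 1 in NAPH, and 3 in myeloid cells. With a ratio of 5 to 4 as the fold they numbered 4 in the Lrg1-middle tier, 4 and 6 for Lrg1-high over Lrg1-low cells in Control and NAPH, and 7 in ciliated cells. TMM scaling and division by the median each left 1 higher in the Lrg1-low tier, and 4 in secretory cells, where a total without the 20 highest genes also left 4. Under TMM scaling, under the mean over cells and with Lrg1 cuts at 10 and 40, 1 member was higher for Lrg1-high over Lrg1-low cells in Control. In the Lrg1-middle tier 2 were higher with the UMI minimum of 4212, without doublet removal, with Lrg1 cuts at 10 and 40 and without transitional cells. Cuts at 2.5 and 10 left 2 in the Lrg1-high tier. Members at least 1.5 times lower in Lrg1-high over Lrg1-low Control cells numbered 3 in 1 random draw of thinned cells and 4 with cuts at 10 and 40. At those cuts the Lrg1-high Control tier held 3 cells. Apart from scaling and the fold, the cause was not tested.

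No paired analysis was possible because each group has 1 library, and no replicate could be left out for the same reason. Depth limits the Lrg1-high Control tier most, where 4 members had 11 UMIs or fewer, and Mvd in ciliated cells.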

Other observations

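Cells that met none of the gates numbered 25 in Control (0.779% of the library) and 167 in NAPH (4.68%). They held Pmvk at 88.9 CPM (49.8 to 147) in Control and 105 CPM (90.1 to 122) in NAPH. Their Fdps stood at 59.3 and 77.7 CPM and their Sqle at 65.2 and 37.3 CPM, on 11 and 61 UMIs. The cells are not of 1 type, and no comparison was made.

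Ctsb, which shares bases with Fdft1 on the opposite strand, stood at 202 CPM in Control and 312 in NAPH AT2 cells (1.55 times, 1.48 to 1.62), near the 1.63 of Fdft1. In myeloid cells the genes differed, with Ctsb at 0.863 (0.788 to 0.946) and Fdft1 at 1.98 (1.39 to 2.85). The SREBP genes themselves stood at 64.6 and 67.7 CPM (Srebf1, 1.05 times, 0.968 to 1.14) and at 70.3 and 68.1 CPM (Srebf2, 0.968 times, 0.895 to 1.05) in AT2 cells.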
